A study of Homo sapiens with 12 samples.

Results

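Genes that move urea, water, ions or organic solutes across membranes were followed in MDA-MB-231, an established human breast cancer cell line classed as triple negative. In all, 9 of the 60234 rows of the count table were described. They are the urea transporter SLC14A1, the water channels AQP1, AQP3 and AQP11, the sodium-proton exchanger SLC9A2, the cation-chloride cotransporters SLC12A2 and SLC12A4, and the volume-regulated channel subunits LRRC8A and LRRC8C. They were chosen by symbol, with the values of fast against parental cells in these same libraries already known, so their differences between the populations are given as descriptions with no test. All 9 passed the filter on low counts, and SLC9A2 passed through the parental libraries alone, since it was all but absent from fast ones.

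The study compared the parental population, whose labels name no treatment, with cells of the same line called fast, which had been captured by their trajectory. RNA was taken from cultured cells, and 12 libraries were sequenced, 3 of each population in each of 2 batches. The series calls the 3 libraries technical replicates and does not say what sets the batches apart, and nothing says how many cells or captures a library stands for. Every p-value below therefore reflects only how these libraries vary among themselves, and part of that may be technical.

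Urea transporters and aquaporins are passive pores. Urea and water follow their gradients through them, and some aquaporins also pass glycerol. Ion transporters set those gradients: a swollen cell opens LRRC8 channels and runs potassium-chloride cotransport to lose salt and water, and a shrunken cell takes up sodium and chloride through SLC12A2 and sodium-proton exchange. WNK kinases act through the kinases SPAK and OSR1 (genes STK39 and OXSR1) to turn the sodium-driven cotransporters on and the potassium-driven ones off. Local swelling and shrinkage of this kind have been studied in migrating cancer cells.

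The libraries held 53267145 to 75944907 counts each, so that a level of 1 CPM (counts scaled to a common library total) stood for 51.9 counts in the shallowest library. Levels are CPM scaled by TMM factors, which lay between 0.974 and 1.03. The mesenchymal marker VIM was abundant in fast (6912 CPM) and parental cells (5050 CPM), and the epithelial cadherin CDH1 reached at most 4 counts in a library, while the epithelial marker EPCAM stood at 11.2 CPM in both populations. ESR1, the estrogen receptor gene, stood at 0.139 CPM in both, and ERBB2, the gene of HER2, at 59.0 and 62.4 CPM. PGR, the progesterone receptor gene, was low but rose, from 0.477 CPM in parental to 2.05 CPM in fast cells (2.12 on the log2 scale, edgeR adjusted p = 6.2e-14). Since several members are best known from red cells, vessels and kidney, markers of those tissues were summed in each library. The 8 erythroid markers, of which 2 had no count, summed to 0.312 to 0.811 CPM in fast and 0.252 to 0.822 CPM in parental libraries. The 5 endothelial markers found summed to 9.44 to 12.4 CPM against 8.19 to 10.7 CPM, nearly all of it KDR, and CDH5 was close to 0 in both. The 6 renal markers summed to 2.55 to 3.52 CPM against 1.46 to 2.23 CPM, most of it CUBN, and UMOD had no count. The 5 leukocyte markers summed to 0.416 to 0.733 CPM against 0.236 to 0.912 CPM, and 1 of them had no count. The part of the higher renal sum in any result was not tested.

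The sequence just before the start of a gene is shown for the members that stood furthest apart between the populations, the urea transporter and the exchanger, and for the most abundant member, LRRC8A. The lines give 250 bases upstream of the start, from RefSeq on GRCh38.p14, 5′ to 3′ on the plus strand, with every CG dinucleotide in capitals. SLC14A1 has 2 annotated starts, at chr18:45723931-45724180 and chr18:45726703-45726952, SLC9A2 lies at chr2:102619303-102619552, and LRRC8A, of whose 2 starts the upstream one is shown, at chr9:128881883-128882132.
SLC14A1 upstream start: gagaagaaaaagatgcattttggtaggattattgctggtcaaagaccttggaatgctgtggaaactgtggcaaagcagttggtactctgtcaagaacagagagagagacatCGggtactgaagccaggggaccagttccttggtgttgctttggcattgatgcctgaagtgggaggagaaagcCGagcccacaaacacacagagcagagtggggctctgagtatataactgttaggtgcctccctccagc
SLC14A1 downstream start: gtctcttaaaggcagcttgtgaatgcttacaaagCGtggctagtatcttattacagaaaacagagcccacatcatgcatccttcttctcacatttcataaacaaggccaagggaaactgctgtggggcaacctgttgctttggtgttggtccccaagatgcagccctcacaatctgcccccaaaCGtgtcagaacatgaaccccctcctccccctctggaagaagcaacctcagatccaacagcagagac
SLC9A2: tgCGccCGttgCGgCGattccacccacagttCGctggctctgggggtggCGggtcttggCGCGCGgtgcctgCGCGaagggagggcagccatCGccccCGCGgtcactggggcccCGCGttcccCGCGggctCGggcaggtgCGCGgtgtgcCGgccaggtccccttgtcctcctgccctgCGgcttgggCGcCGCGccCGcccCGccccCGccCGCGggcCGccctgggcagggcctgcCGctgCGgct
LRRC8A: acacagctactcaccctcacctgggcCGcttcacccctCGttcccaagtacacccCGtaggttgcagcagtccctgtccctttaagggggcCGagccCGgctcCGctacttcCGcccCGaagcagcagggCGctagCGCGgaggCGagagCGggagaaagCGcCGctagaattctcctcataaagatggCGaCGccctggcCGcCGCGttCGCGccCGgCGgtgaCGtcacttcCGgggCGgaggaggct
The sequences differ in how many CG dinucleotides they hold (letters CG, which read the same on both strands). Both SLC14A1 windows hold 2, SLC9A2 holds 34 and LRRC8A holds 27. Over 35116 windows of this length the median was 11, and 93.9% held at least 1. Of the members not shown, SLC12A2 has 40, LRRC8C 37, AQP3 23 and AQP1 8, and the 4 windows of SLC12A4 have 18, 22, 2 and 14. A window was found for 8 of the 9 members, the other being AQP11. These counts describe the sequence only, and methylation was not measured.

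Among the pores, SLC14A1 was the member that stood far higher in fast cells. It encodes the facilitated urea transporter UT-B, which carries the Kidd blood group antigens on red cells. Its level was 53.3, 53.3 and 53.7 CPM in the fast libraries of batch 1 and 44.4, 43.1 and 46.7 CPM in those of batch 2. In parental libraries it was 4.61, 5.26 and 4.44 CPM in batch 1 and 4.35, 3.81 and 3.32 CPM in batch 2. Every fast library stood above every parental one, and batch 2 was lower than batch 1 in both populations. The means of 49.1 ± 4.94 and 4.30 ± 0.668 CPM (SD, n = 6 libraries each) differed 11.4-fold. The log2 fold change was 3.49 ± 0.07 (SE) in batch 1 and 3.55 ± 0.07 in batch 2, and 3.52 ± 0.05 over both. In bulk RNA, a larger share of cells with a transcript cannot be told apart from more transcript per cell.

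The other urea transporter gene, SLC14A2, known from the kidney collecting duct, had 19 counts over all 12 libraries and was removed by the filter. ARG2, the mitochondrial arginase that releases urea from arginine, fell slightly in fast cells, from 44.8 ± 2.29 to 38.9 ± 2.20 CPM (SD, n = 6 libraries each; log2 fold change -0.20 ± 0.04, edgeR adjusted p = 2.4e-05).

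The aquaporins stood near 1 to 2 CPM in both populations. AQP1, a water channel of red cells, vessels and the proximal tubule, had 1.64, 2.13 and 1.54 CPM in fast libraries of batch 1 and 1.52, 1.39 and 1.34 CPM in those of batch 2. In parental libraries it had 1.84, 1.33 and 1.29 CPM and then 1.21, 1.56 and 1.99 CPM. The populations overlapped in both batches, with a log2 fold change of 0.04 ± 0.15 over all 12 libraries. A further row of the table also carries the symbol AQP1 (ENSG00000250424). GENCODE 29 gives it the name AC004691.2 and places it over AQP1 (ENSG00000240583), and its counts came to 87.7% of those of the AQP1 row. Reads of the 2 rows cannot be told apart here, and the second row gave the same log2 fold change of 0.04 ± 0.15.

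AQP3, an aquaglyceroporin that passes both water and glycerol, differed in one batch. In batch 1 its fast libraries held 2.46, 2.296 and 1.81 CPM and its parental ones 1.05, 1.24 and 1.15 CPM, which do not overlap. In batch 2 the fast libraries held 1.28, 1.55 and 1.89 CPM and the parental ones 1.59, 1.27 and 1.62 CPM, which do. The log2 fold change was 0.94 ± 0.19 in batch 1 and 0.07 ± 0.19 in batch 2. These differ by -0.86 ± 0.27, which passed the adjusted threshold of 0.05 with DESeq2 but not with edgeR. Batch 2 minus batch 1 was -0.49 ± 0.19 in fast and 0.38 ± 0.20 in parental cells on the log2 scale, given as a description.

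AQP11, an unorthodox aquaporin of intracellular membranes, had 1.33, 1.31 and 1.20 CPM in fast and 1.11, 1.66 and 1.15 CPM in parental libraries of batch 1. In batch 2 it had 1.33, 0.933 and 0.743 CPM in fast and 1.99, 1.30 and 1.44 CPM in parental libraries. The populations overlapped in both batches. The log2 fold change was -0.03 ± 0.23 in batch 1 and -0.64 ± 0.22 in batch 2, a difference of -0.61 ± 0.32.

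Most of the aquaporin family lay below the depth of these libraries. Of 14 aquaporin genes, 9 were removed by the filter. AQP2, AQP4, AQP5, AQP7 and AQP8 had 4 to 8 counts each over all 12 libraries. AQP9, AQP10, AQP12A and AQP12B had no count, which allows up to 0.00382 CPM (3 counts over the 12 libraries, counting error only). The other two that passed, MIP and AQP6, did not pass the test, at 1.62 against 1.74 CPM and 0.406 against 0.551 CPM in fast and parental cells.

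**Figure D1:**
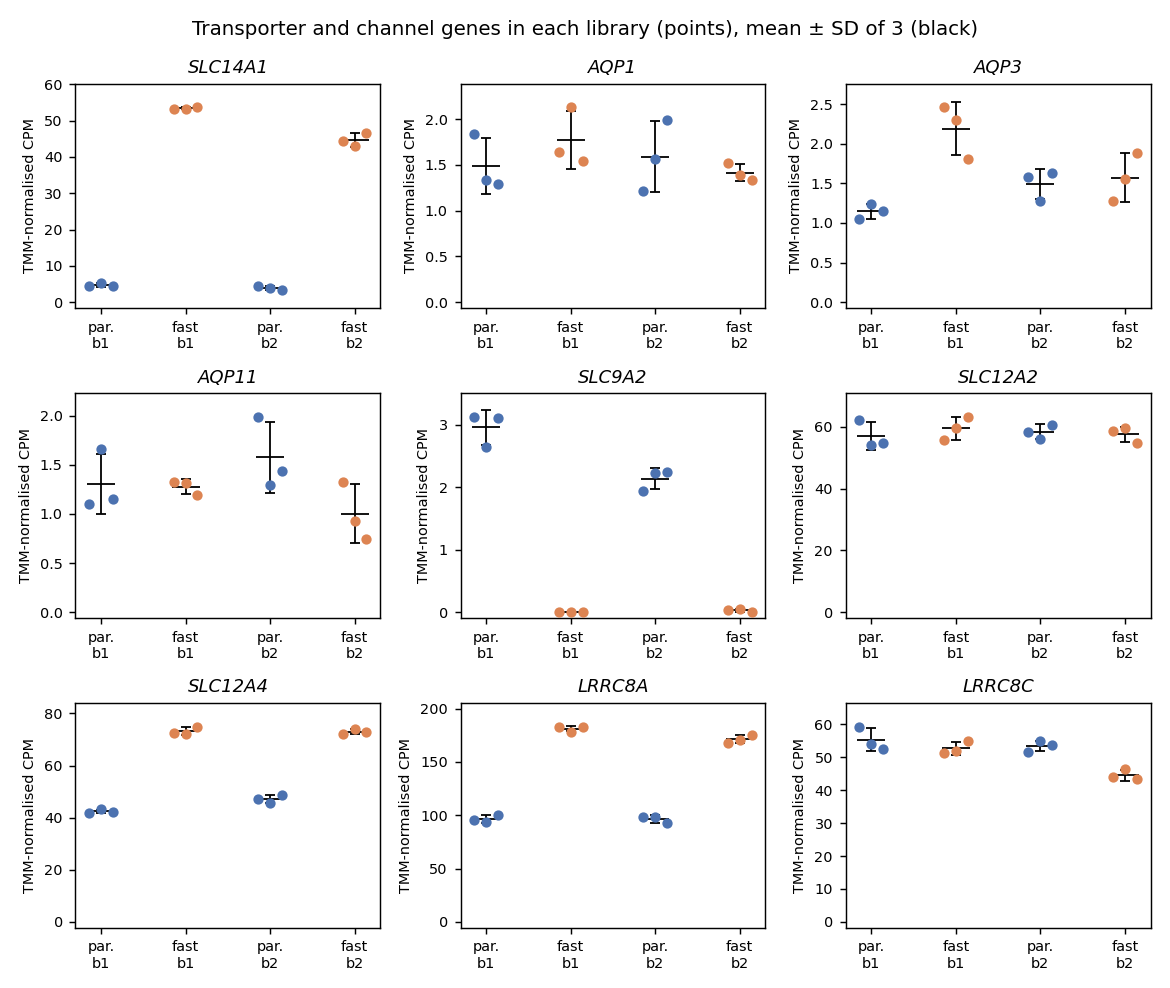
TMM-normalised counts (CPM, vertical axis from 0) of the 9 genes in each of the 12 libraries, with blue points for parental and orange points for fast libraries, b1 and b2 for the batches, and black lines for the mean ± SD of 3 libraries. SLC14A1, SLC12A4 and LRRC8A are higher in all 6 fast libraries than in all 6 parental ones, SLC9A2 is at or near 0 in fast libraries, and the other genes overlap in at least 1 batch.

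SLC9A2 was the member that stood far lower in fast cells. It encodes NHE2, a sodium-proton exchanger of epithelial plasma membranes, which brings in sodium in exchange for protons. The parental libraries had 178, 170 and 200 counts in batch 1 and 115, 161 and 160 counts in batch 2, or 3.12, 2.64 and 3.10 CPM and 1.94, 2.22 and 2.24 CPM. The 3 fast libraries of batch 1 had no count, and those of batch 2 had 2, 4 and 0 counts. All 6 fast libraries thus lay below all 6 parental ones. Over all libraries the totals were 984 counts in parental and 6 in fast cells, a ratio of normalised totals of 167 (exact 95% Poisson interval 76.5 to 457, counting error only). In batch 1 the level was at least 181-fold lower in fast cells (floor of 3 counts over the 3 libraries). In batch 2 it was 75.9-fold lower (34.6 to 208).

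The rest of the sodium-proton exchange list was split in direction. Of its 17 genes, 13 were tested, 6 rose in fast cells, 6 fell and 1 was not called, with a median log2 fold change of 0.13. SLC9A5, another plasma membrane exchanger, rose from 12.6 ± 0.992 to 24.7 ± 1.30 CPM (log2 fold change 0.97 ± 0.05, edgeR adjusted p = 7.7e-19). CHP1, the calcium-binding partner that these exchangers need at the membrane, rose from 47.4 to 75.6 CPM (0.67 ± 0.03). SLC9A3, the exchanger of the gut and kidney brush border, fell from 3.33 to 1.93 CPM (-0.79 ± 0.10).

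Of the cation-chloride cotransporters, SLC12A2 overlapped between the populations and SLC12A4 was higher in fast cells. SLC12A2 encodes NKCC1, which loads cells with sodium, potassium and chloride. Its fast libraries held 55.8, 59.6 and 63.2 CPM in batch 1 and 58.5, 59.5 and 54.7 CPM in batch 2. Its parental libraries held 62.1, 54.0 and 54.8 CPM and then 58.4, 55.9 and 60.7 CPM, so the populations overlapped. The log2 fold change was 0.06 ± 0.05 in batch 1, -0.02 ± 0.05 in batch 2 and 0.02 ± 0.04 over both, the difference of smallest size among the 9 members.

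SLC12A4 encodes KCC1, a broadly expressed cotransporter that lets potassium and chloride leave the cell. Its fast libraries held 72.5, 71.98 and 74.9 CPM in batch 1 and 72.03, 73.9 and 72.9 CPM in batch 2. Its parental libraries held 41.7, 43.2 and 42.3 CPM and then 47.2, 45.8 and 48.6 CPM. Every fast library lay above every parental one, by a factor of 1.63 between the means of 73.0 ± 1.16 and 44.8 ± 2.84 CPM (SD, n = 6 libraries each). The log2 fold change was 0.79 ± 0.04 in batch 1 and 0.63 ± 0.04 in batch 2. The difference of -0.16 ± 0.06 did not pass the adjusted threshold. Batch 2 minus batch 1, described with no test, was -0.0026 ± 0.04 in fast and 0.16 ± 0.04 in parental cells on the log2 scale.

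Per kilobase of annotated exon, SLC12A2 and SLC12A4 stood level in parental cells and apart in fast cells. The ratio of SLC12A2 to SLC12A4 per kilobase was 1.05 ± 0.0981 and 0.961 ± 0.0105 (SD, n = 3 libraries) in parental cells of batches 1 and 2. In fast cells it was 0.633 ± 0.0304 and 0.614 ± 0.0261, and no fast library came near a parental one. This ratio rests on the same values that chose the genes and has no test.

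Among the other 7 genes of this cotransporter family, 5 were tested, 1 rose, 2 fell and 2 were not called, with a median log2 fold change of -0.17. SLC12A7 (KCC4), a potassium-chloride cotransporter like KCC1, fell from 11.01 ± 0.573 to 5.65 ± 0.679 CPM (-0.97 ± 0.06, edgeR adjusted p = 2.0e-15). SLC12A5 (KCC2), best known from neurons and picked after its values were seen, fell from 317 to 8 counts, a ratio of 40.4 (exact 95% Poisson interval 20.2 to 94.3). SLC12A1 and SLC12A3, the cotransporters of the renal tubule, had 49 and 4 counts over the 12 libraries and were removed by the filter.

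The genes that control these cotransporters, kinases and others that act on the kinases, fell more often than they rose. Of 10 genes of the WNK and SPAK list, all tested, 3 rose, 6 fell and 1 was not called, with a median log2 fold change of -0.47. Among all tested genes, 31.9% rose and 31.5% fell. The kinase OXSR1 (OSR1) fell from 155 ± 3.73 to 106 ± 7.17 CPM (log2 fold change -0.55 ± 0.03, edgeR adjusted p = 6.0e-17), and CAB39, the scaffold that activates it, fell from 134 to 103 CPM (-0.38 ± 0.03). WNK3 fell from 10.4 to 5.81 CPM (-0.84 ± 0.07) and WNK4 from 7.35 to 4.88 CPM (-0.60 ± 0.07). KLHL3, the adaptor that sends WNK kinases for degradation, and WNK2, both picked after their values were seen, fell from 310 to 2 counts (ratio 158, 95% Poisson interval 43.4 to 1310) and from 66 to 4 counts (ratio 16.8, 6.27 to 63.5). WNK1 rose slightly, from 172 to 191 CPM (0.15 ± 0.03). STK39 (SPAK), at 31.7 in parental and 33.9 CPM in fast cells (0.10 ± 0.04, adjusted p = 0.035), counts among the 3 that rose, but lost its call under 10 of 19 alternatives (adjusted p = 0.061 to 0.164). Both were also picked afterwards.

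The volume-regulated anion channel is built from LRRC8 subunits, and LRRC8A is the one it cannot work without. Its fast libraries held 182, 178 and 183 CPM in batch 1 and 168, 171 and 175 CPM in batch 2. Its parental libraries held 95.6, 93.6 and 100.4 CPM and then 98.8, 98.7 and 92.3 CPM. Every fast library lay above every parental one, with means of 176 ± 6.09 and 96.6 ± 3.23 CPM (SD, n = 6 libraries each) that differed 1.83-fold. Within batches the log2 fold change was 0.91 ± 0.04 in batch 1 and 0.83 ± 0.03 in batch 2 (difference -0.08 ± 0.05).

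LRRC8C, a partner subunit that shapes which solutes pass, went slightly the other way. Its fast libraries held 51.4, 51.8 and 54.9 CPM in batch 1 and its parental ones 59.3, 54.1 and 52.6 CPM, which overlap. In batch 2 the fast libraries held 43.9, 46.5 and 43.3 CPM, all below the parental 51.7, 54.9 and 53.6 CPM. On the log2 scale the fold change was -0.07 ± 0.05 in batch 1 and -0.26 ± 0.05 in batch 2. These differ by -0.19 ± 0.06, which did not pass the adjusted threshold. Batch 2 minus batch 1, described with no test, was -0.24 ± 0.05 in fast and -0.05 ± 0.05 in parental cells.

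LRRC8A thus took a larger part of the family's transcripts in fast cells. Per kilobase of annotated exon, it made up 68.4% ± 0.476 and 68.7% ± 0.473 of the summed CPM of the 5 LRRC8 genes in fast cells of batches 1 and 2 (SD, n = 3 libraries). In parental cells it made up 48.8% ± 1.08 and 48.7% ± 0.882. The share of LRRC8D, a subunit linked to the passage of organic solutes, was 13.3% and 14.4% in fast against 24.1% and 24.8% in parental cells. The shares of LRRC8B were 3.53% and 3.14% against 7.46% and 6.90%, those of LRRC8C 8.88% and 7.96% against 12.5% and 12.0%, and those of LRRC8E 5.85% and 5.85% against 7.19% and 7.58%. Shares within a family sum to a whole, so a larger LRRC8A alone lowers the others. By level, LRRC8B fell from 22.3 to 13.5 CPM (log2 fold change -0.73 ± 0.05, edgeR adjusted p = 1.3e-15) and LRRC8D from 44.9 to 33.0 CPM (-0.44 ± 0.04, adjusted p = 4.1e-12), while LRRC8E, at 12.5 against 12.1 CPM, was not called (adjusted p = 0.531).

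**Figure D2:**
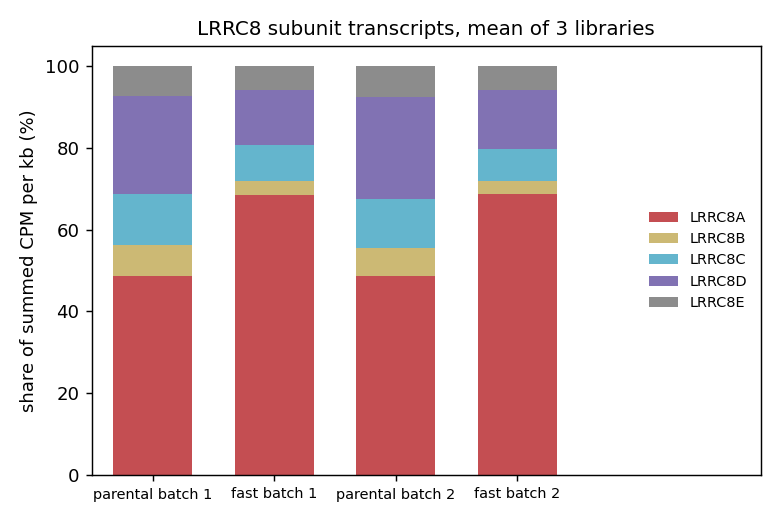
Share (%) of each LRRC8 gene in the summed CPM per kilobase of annotated exon of the 5 LRRC8 genes, as stacked bars, each the mean of 3 libraries. LRRC8A takes 68.4% and 68.7% in fast cells and 48.8% and 48.7% in parental cells, and every other subunit takes a smaller share in fast cells.

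Other volume and chloride channels moved in both directions. Of 13 genes tested, 4 rose, 4 fell and 5 were not called, with a median log2 fold change of 0.04. TTYH3, a tweety family protein linked to swelling-activated currents, rose from 123 ± 8.38 to 195 ± 8.92 CPM (0.66 ± 0.03, edgeR adjusted p = 3.0e-21), and ANO6, a calcium-activated scramblase and channel, rose from 46.2 to 65.3 CPM (0.50 ± 0.04). CLCN2, a chloride channel, fell from 15.2 to 10.1 CPM (-0.58 ± 0.05). The rise of BEST1, from 496 to 629 CPM (0.32 ± 0.08), is uncertain, since it overlaps the abundant gene FTH1 and strand was not stated, and its call was lost when libraries were summed (adjusted p = 0.304). TRPV4, a calcium channel that responds to swelling, rose from 9 to 56 counts. BEST1 and TRPV4 were picked after their values were seen.

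Genes of the slower response to osmotic stress, by which cells load organic solutes, moved in both directions. Of 8 genes, 7 were tested, 4 rose and 2 fell, with a median log2 fold change of 0.29. Among all tested genes, 31.9% rose and 31.5% fell. NFAT5, the transcription factor of that response, rose from 56.1 ± 5.74 to 86.7 ± 10.6 CPM (0.63 ± 0.04, edgeR adjusted p = 2.6e-11), and SGK1, a kinase induced by shrinkage and by hormones, rose from 22.7 to 35.2 CPM (0.63 ± 0.05). SLC38A2, an amino acid transporter, rose from 229 to 430 CPM (0.86 ± 0.10, adjusted p = 3.6e-05), and the taurine transporter SLC6A6 fell from 127 to 87.1 CPM (-0.55 ± 0.08, adjusted p = 0.00011). Those 2 calls were lost when the 3 libraries of each population and batch were summed (adjusted p = 0.226 and 0.112).

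The sodium-potassium pump sets the gradients that all of these transporters draw on. Of 14 pump genes, 5 were tested, 1 rose and 3 fell, with a median log2 fold change of -0.12. FXYD5, a pump regulator, rose from 196 to 246 CPM (0.33 ± 0.03, edgeR adjusted p = 1.5e-13). The pump's beta subunits changed less: ATP1B1 fell from 120.5 to 103 CPM (-0.23 ± 0.04) and ATP1B3 from 134 to 123 CPM (-0.12 ± 0.03). The ATP1B3 call was lost when libraries were summed (adjusted p = 0.0737).

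Over the 7 lists, 56 of 83 genes were tested, 19 rose and 24 fell, or 76.8% called. That is to be read against 63.4% of all 22668 tested genes called in fast against parental cells, 31.9% higher and 31.5% lower. The median log2 fold change of the lists was -0.06 and that of all tested genes 0.01. Differences that were both called and at least 2-fold were seen for 6 of the 56, TESC, SLC12A5, WNK2, KLHL3 and TRPV4 among them. Those 5 had means under 1 CPM and were picked after their values were seen. Of all tested genes, 11.3% reached 2-fold whether called or not, a wider count than that of the list genes.

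**Figure D3:**
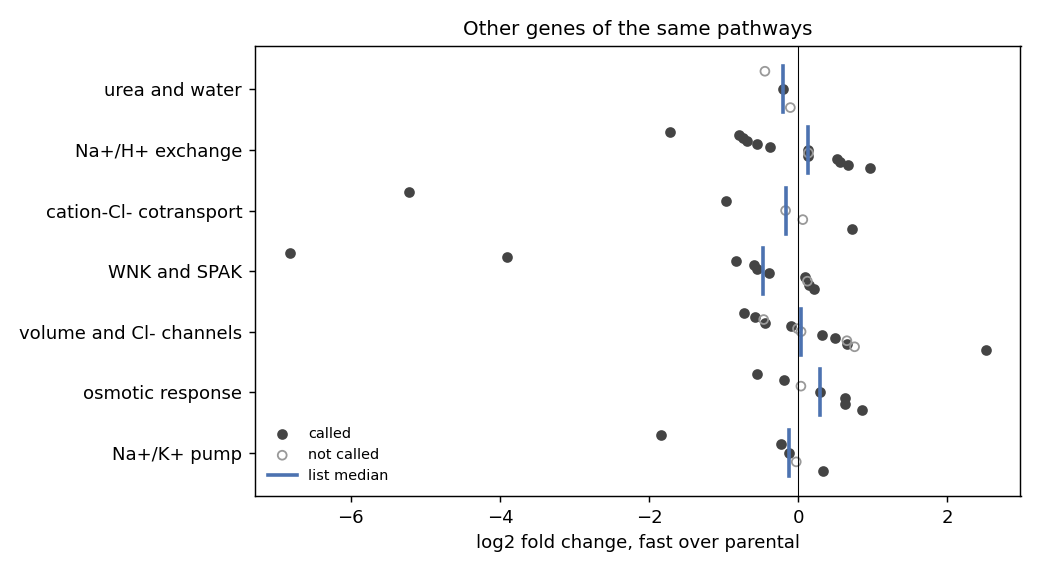
Log2 fold change of fast over parental cells (horizontal axis, fit over 12 libraries) for the 56 tested genes of the 7 lists, 1 point a gene, filled where the edgeR adjusted p was under 0.05, with a blue bar at each list's median. Most genes lie between -1 and 1, and KLHL3, SLC12A5 and WNK2 lie far to the left on fitted values that depend on the prior count.

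Put in order of level per kilobase of exon, LRRC8A led the members in both populations. In parental cells its 18.5 ± 0.618 CPM per kilobase (SD, n = 6 libraries) was followed by SLC12A2 at 5.41 ± 0.309, SLC12A4 at 5.40 ± 0.342 and LRRC8C at 4.64 ± 0.226, each of which overlapped the next in its range over libraries. AQP11 at 0.601, SLC14A1 at 0.598, AQP1 and AQP3 at 0.448 each and SLC9A2 at 0.425 made a low group whose neighbours overlapped. In fast cells the order was LRRC8A at 33.7 ± 1.16, SLC12A4 at 8.80 ± 0.139, SLC14A1 at 6.84 ± 0.688, SLC12A2 at 5.49 ± 0.284 and LRRC8C at 4.15 ± 0.406, with no overlap between neighbours. AQP3 at 0.638, AQP11 at 0.476 and AQP1 at 0.464 overlapped, and SLC9A2 came last at 0.0023. SLC14A1 thus stood among the low group in parental cells and between the cotransporters in fast cells. The lengths cover all annotated exons of a gene and need not be those of the transcripts made here.

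Across both batches, 4 of the 9 members had all 6 libraries of one population beyond all 6 of the other, where 38.4% of all tested genes did. Fast against parental, 6 of the 9 were past the call threshold (4 higher and 2 lower), where 63.4% of all tested genes were. Of the 9, 2 were past 2-fold, where 11.3% of all tested genes were. Those counts only restate how the genes were selected. The difference of the effect between batches is made of the same values within each batch, so it too is a description. It passed the adjusted threshold for 0 of 9 members with edgeR, where 5.4% of all tested genes did, and for 1, AQP3, with DESeq2. At an unadjusted p under 0.05 it passed for 4 of the 9 (AQP3, SLC9A2, SLC12A4 and LRRC8C), where 17.5% of all tested genes did. This count is no test of the members, which were chosen on these values, and SLC9A2 enters it on 0 against 6 fast counts. For SLC9A2 no size of this difference is given, since its fast libraries of batch 1 had no count.

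**Figure D4:**
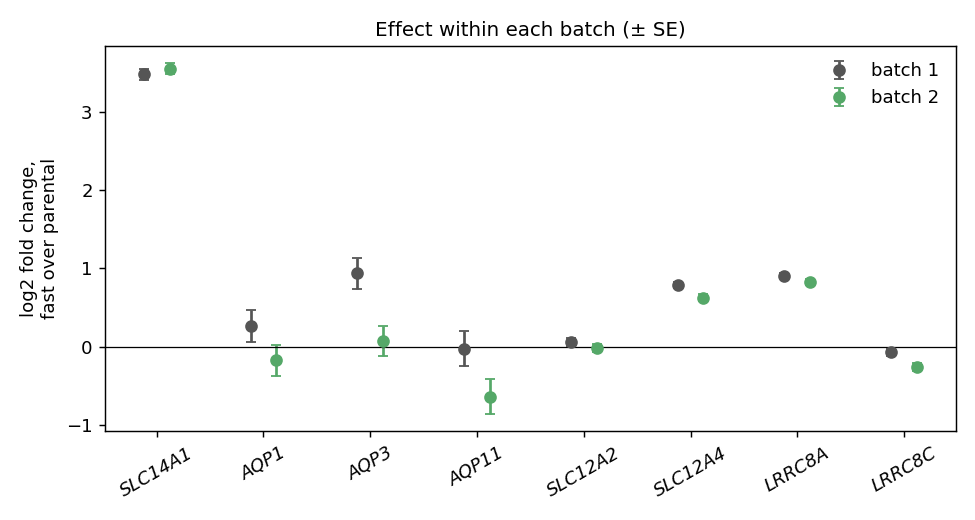
Log2 fold change of fast over parental cells (vertical axis, ± SE from the edgeR fit) within batch 1 (grey) and batch 2 (green) for 8 genes. SLC9A2 is left out because its fast libraries of batch 1 had no count. SLC14A1, SLC12A4 and LRRC8A lie above 0 in both batches, and AQP3 lies well above 0 in batch 1 and within its SE of 0 in batch 2.

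Levels also differed between batches regardless of population. With population in the fit, SLC14A1 was lower in batch 2 (log2 difference -0.28 ± 0.05, edgeR adjusted p = 3.1e-05) and so was LRRC8C (-0.15 ± 0.04, adjusted p = 0.0029), which makes 2 of 9 members against 36.2% of all tested genes. Differences within a population share libraries with the values that chose the genes, so for the members they are descriptions. Within parental cells 2 members were past the threshold, SLC14A1 (-0.33 ± 0.09) and SLC12A4, against 30% of all tested genes. Within fast cells 4 were past it, SLC14A1 (-0.26 ± 0.06), AQP3, LRRC8C and SLC9A2, the last on no more than 0 against 6 counts. Of all tested genes, 27.2% were called there. For SLC14A1 the batch difference of about the same size in both populations was small beside the 11.4-fold difference between them.

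The genes next to each member along its chromosome were read from the GENCODE 29 gene order, 10 tested genes on each side. SLC14A1, on chromosome 18, stood apart from most of its neighbours, whose median log2 fold change was -0.25, with 3 of 20 called higher and 14 lower. The tested gene next to it on one side, SIGLEC15, a sialic acid-binding lectin, rose as well, from 0.841 CPM in parental to 3.89 CPM in fast cells (2.21 on the log2 scale, edgeR adjusted p = 1.3e-14). The one on the other side, RP11-116O18.3, rose from 20 counts in parental to 102 counts in fast cells (edgeR adjusted p = 0.00019). SLC9A2, on chromosome 2, sits beside the interleukin-1 receptor genes. On that side IL18R1 fell from 258 to 2 counts, IL1RL2 from 105 to 16 counts and IL1R1 from 699 to 202 counts, whereas MFSD9 on the other side, at 7.32 against 7.86 CPM, was not called. All of these neighbours were picked after their values were seen.

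SLC12A4, on chromosome 16, and LRRC8A, on chromosome 9, lay among genes that were also higher in fast cells. Of the 20 neighbours of SLC12A4, 19 were called higher and none lower, with log2 fold changes from 0.36 to 1.22 and a median of 0.49 beside its own 0.71, and 4 stood above it. Of the 20 neighbours of LRRC8A, 19 were called higher and none lower, with a median of 0.51 beside its own 0.87, and 1 stood above it. LRRC8C, on chromosome 1, lay among genes that were lower: 15 of 20 were called lower and none higher, and all 20 had a lower value than its own -0.17, with a median of -0.69. LRRC8B (-0.73) and LRRC8D (-0.44) are among those 15, so the falls of these subunit genes given above lie in the same run. The 15 also include a gene family, picked after its values were seen: GBP1 (-0.84), GBP2 (-0.80), GBP3 (-0.46), GBP4 (-0.66) and GBP5 (-1.40). SLC12A2, on chromosome 5, had 8 of 20 neighbours called lower and none higher (median -0.20).

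For the aquaporins, AQP1 on chromosome 7 had 9 of 19 neighbours called higher and 2 lower (median 0.30), AQP3 on chromosome 9 had 7 higher and 4 lower (median 0.08), and AQP11 on chromosome 11 had 1 higher and 10 lower (median -0.26). AQP11 at -0.34 thus lay close to its neighbours' median. The part of gene dosage in any of these runs was not tested.

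**Figure D5:**
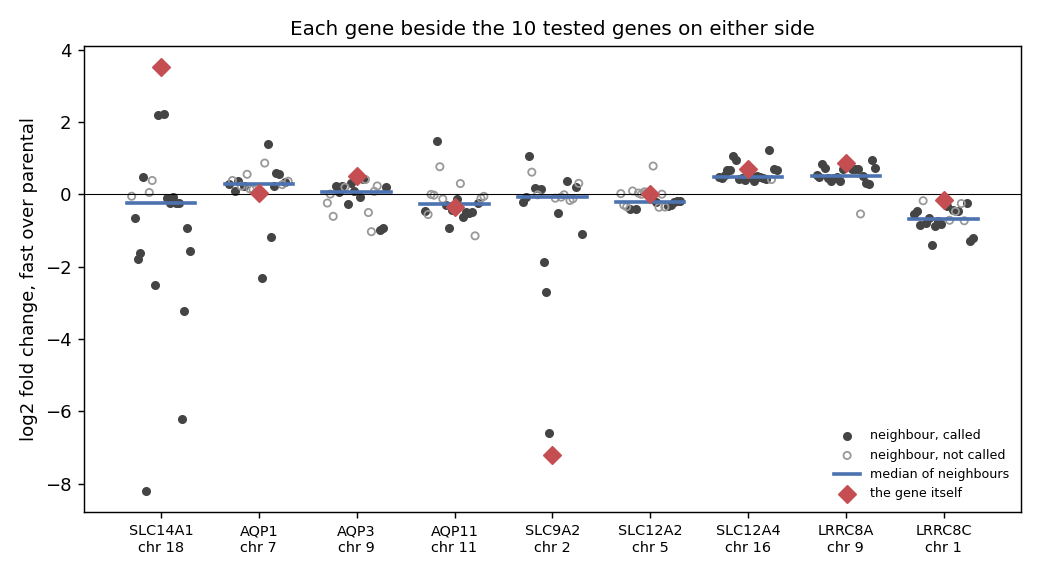
Log2 fold change of fast over parental cells (vertical axis, fit over 12 libraries) for each of the 9 genes (red diamond) and the 10 tested genes on either side of it (points, filled where called), with a blue bar at the neighbours' median. SLC12A4 and LRRC8A lie in runs of genes above 0 and LRRC8C in a run below 0, while SLC14A1 and SLC9A2 stand far from their neighbours' medians. The SLC9A2 value depends on the prior count.

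The gene whose log2 level over the 12 libraries was most like each member was found by Pearson correlation. For SLC14A1 it was the integrin subunit ITGB2 (r = 0.999, 56.3 against 14.4 CPM). For SLC12A4 it was DBN1, the actin-binding protein drebrin (r = 0.998, 384 against 123 CPM), for LRRC8A the tubulin TUBB6 (r = 0.998, 705 against 410 CPM), and for SLC9A2 the lipid flippase subunit ATP8B1 (r = 0.997, 14.6 against 38.1 CPM). For LRRC8C it was the actin-severing protein DSTN (r = 0.957, 237 against 267 CPM) and for AQP3 TRIM13 (r = 0.936, 22.4 against 18.5 CPM). The members without a clear difference had weaker likeness: AQP1 with SKI (r = 0.866), SLC12A2 with NT5C3A (r = 0.857) and AQP11 with HLA-L (r = 0.805). All points share the split into 2 populations and 2 batches, so these values describe a shared pattern over libraries and carry no p.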

How the data were processed

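RNA of 12 libraries (2 populations, 2 batches, 3 each) was sequenced. The authors deposited raw read counts per gene for 60234 rows. The submitters' processing notes name Trimmomatic 0.32, STAR 2.3.0e, featureCounts 1.4.4 and the builds hg19 and GRCh37. The strand setting and the treatment of multi-mapped reads are not given in those sources.

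The deposited counts went into edgeR 4.0.16 under R 4.3.3, with TMM factors, the filter by group (minimum count 10, minimum total 15), which left 22668 genes, and robust quasi-likelihood fits. A fit with batch and population over all libraries gave fold changes and the batch difference. Another, with a separate mean for each of the 4 groups, gave the effect in each batch and the interaction. The Benjamini-Hochberg adjustment ran over all tested genes, with 0.05 as the threshold. The steps were tested on simulated data. The total of 53267145 to 75944907 counts per library sets the precision, and Poisson intervals (95%) and the floor of 3 counts cover counting error only.

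The members and lists were chosen with earlier results of these data known. Named genes were all 9 members, up to 4 called genes of each list with a mean of at least 1 CPM by size of change, the family members the filter removed, and the 1 gene most alike in log2 CPM (prior count 2). Some genes that this rule names are not reported here. Of 114 further list entries, 1 (PECAM1) was unmatched. Any 2 libraries of a population and batch differed beyond sampling noise in each of the 12 pairs (counts varied 3.42 to 8.82 times as much as counting error alone gives), so all were kept. Gene order, exon lengths and names come from GENCODE 29 on GRCh38, matched by gene ID for 86.9% of rows, and promoter sequences from RefSeq. Alternatives were DESeq2 1.42.0, upper-quartile factors, other filters, sums of the libraries of a group, no batch term, a replicate block and leaving out each library.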

Additional observations from a re-analysis of the deposited data

Results flagged for a closer look

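In the row that overlaps AQP1, the second fast library of batch 1 stood apart at 1.91 CPM from the other 5 fast libraries. Chance marks about 1 in 20 groups of this kind. No member's own row had such a library, though the same library was also the highest fast one in the AQP1 row, at 2.13 CPM.

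The fold changes of 9 of the 56 tested list genes differed between batches in the interaction test, where 5.4% of all tested genes did. Of these 9, 6 are described here, and each of the 6 had a lower log2 fold change in batch 2 than in batch 1. The log2 differences (batch 2 minus batch 1) were -0.57 for SLC38A2, -0.44 for SLC6A6, -0.31 for SGK1, -0.24 for ATP1B1, -0.20 for OXSR1 and -0.16 for ATP1B3 (edgeR adjusted p from 1.5e-07 for SLC6A6 to 0.048 for ATP1B3). The sign of fast against parental was the same in both batches for all 6. For ATP1B1 (-0.10 ± 0.04) and ATP1B3 (-0.04 ± 0.04) the fall was small in batch 1, where the populations overlapped. In batch 2 they were at -0.35 ± 0.04 and -0.20 ± 0.04. SLC38A2 was 1.14 higher in batch 1 and 0.57 higher in batch 2 on the log2 scale. SLC6A6 was at -0.33 and -0.77.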

How the results depend on the processing

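The number of members whose effect differed between batches was 0 with edgeR, 1 with DESeq2, and 0 to 2 without any 1 library (2 without the third fast library of batch 2, of which SLC9A2 is set against a group with no count). A few values near 0 changed sign. The batch difference of SLC12A2 (-0.01) became 0.0205 with upper-quartile factors, 0.00495 with only genes averaging 1 CPM or more, and lay between -0.029 and 0.0181 without any 1 library. Without any 1 library, the batch difference lay between -0.157 and 0.0646 for AQP11 and between -0.163 and 0.0204 for AQP3, and the difference of effect between batches lay between -0.144 and 0.0121 for SLC12A2 and between -0.0057 and 0.165 for SLC14A1. With DESeq2 the batch difference of SLC9A2 became 0.0816. The batch difference of SLC12A4 was called with upper-quartile factors (adjusted p = 0.0118), with only genes averaging 1 CPM or more (0.026) and without the third fast library of batch 1 (0.0373). Without the second fast library of batch 2, which held 4 of its 6 counts, the fitted SLC9A2 fold change, which depends on the prior count, moved from -7.20 to -8.33. The cause was not tested.

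Replicate numbers, taken from the sample titles, did not pair the libraries. The column names share a number in 5 of the 6 pairs and differ in the second pair of batch 1. Deviations of same-numbered libraries correlated at -0.0916 to 0.0721 over 6 pairs, and 2 of 6 fast libraries correlated best with their own number. With a replicate block, 7024 genes were higher and 6942 lower (7234 and 7140 without it), 17 and 24 list genes were called higher and lower, and 0 members differed between batches. With the libraries of each group summed, 6398 were higher and 6135 lower. Of the list genes named here as called, SLC38A2, SLC6A6, ATP1B3 and BEST1 lost their call with these sums and under no other alternative. STK39 lost its call under 10 of 19, among them DESeq2, upper-quartile factors, the replicate block and leaving out any 1 of 4 libraries of batch 2 (fast replicates 1 and 2, parental replicates 1 and 3). At this depth, levels under 1 CPM rest on few counts, as for the aquaporins that the filter removed.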
